A study of Macaca mulatta with 2 samples.

Results

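The genes described here are the two-pore potassium channels KCNK1, KCNK2, KCNK3, KCNK9 and KCNK10 and the HCN channels HCN2, HCN3 and HCN4, named as channels that respond to volatile anesthetics and found by symbol in a table of 33618 genes. The choice named 9 genes, of which 8 were measured, and KCNK4 was not analysed here. Prefrontal cortex RNA was sequenced from 2 infant rhesus macaques, 1 labelled as control and 1 as given sevoflurane, a volatile anesthetic, and both were labelled as 28 days old. By the labels, sevoflurane at 2.5 to 3% was inhaled for 4 h at about postnatal day 7 and again at 14 and 28 days. The labels do not say whether these are ages or intervals. The results of the paper give the same 3 numbers as postnatal days, whereas its methods place the later exposures at older ages. The methods add that anesthesia was given in pure oxygen with intubation and that the cortex was taken straight after the last exposure. How the control animal was handled is not given in the sources used here. The methods describe 3 animals per group, of which 1 per group was analysed here, so every difference below is between 2 libraries and not between conditions, and no p-value is given.

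Reads on genes numbered 16960880 (control) and 9839105 (sevoflurane). The cortical excitatory neuron genes SLC17A7 and TBR1, which bear on the tissue label, had from 2057 to 16767 reads per library. The 9 Y-linked genes examined held 3 control and 4542 sevoflurane reads, and the methods list 1 male, in the anesthesia group. By these reads and the methods, the sevoflurane animal was the male and the control animal a female. Animal, sex and exposure therefore cannot be told apart in any ratio below. Levels are given as CPM, reads per 1000000 reads of a library, with library sizes scaled by the TMM method. Each level and ratio carries a 95% interval that covers counting error only. With no transcript lengths used here, levels were compared between libraries and not between genes.

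Two-pore channels pass potassium out of the resting cell and hold the membrane potential away from threshold. The TREK channels (KCNK2, KCNK10) and TASK channels (KCNK3, KCNK9) are opened by volatile anesthetics, which makes neurons less excitable. HCN channels do the reverse, since they open when the membrane hyperpolarizes, carry an inward cation current, and are helped to open by cyclic AMP. Volatile anesthetics reduce the current through HCN channels, which also sets how dendrites of cortical pyramidal neurons add up their inputs.

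The 8 channel genes moved in both directions and by little. KCNK3, HCN3 and KCNK9 were higher in the sevoflurane library, KCNK10, KCNK1 and HCN2 were lower, and KCNK2 and HCN4 had intervals that included equal expression. Log2 ratios of sevoflurane over control ran from -0.62 for KCNK10 to 0.55 for KCNK3, and none of the 8 was at least 2-fold apart. Over all 18050 tested genes, those with at least 1 CPM in either library, 7.56% reached this fold on the higher side and 5.47% on the lower side, with an interval that excluded equal expression. By the interval alone, 3 of the 8 channel genes (37.5%) were higher and 3 were lower, against 28.4% and 28.1% of all tested genes. The median log2 ratio of the 8 was 0.13, beside -0.0048 over all tested genes. Of the 8, 6 lay between the lower quartile of all tested genes (-0.34) and their upper quartile (0.37). The counting intervals of the levels did not overlap between the libraries for 5 of the 8, against 43.5% of all tested genes. All these shares depend on the reads of a gene, and the background was not matched for reads. The 8 genes had from 140 to 1318 reads per library. With a minimum of 5 CPM, 4 of the 8 were higher and 3 lower by the interval, against 31.9% and 31.1% of all tested genes.

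**Figure D1:**
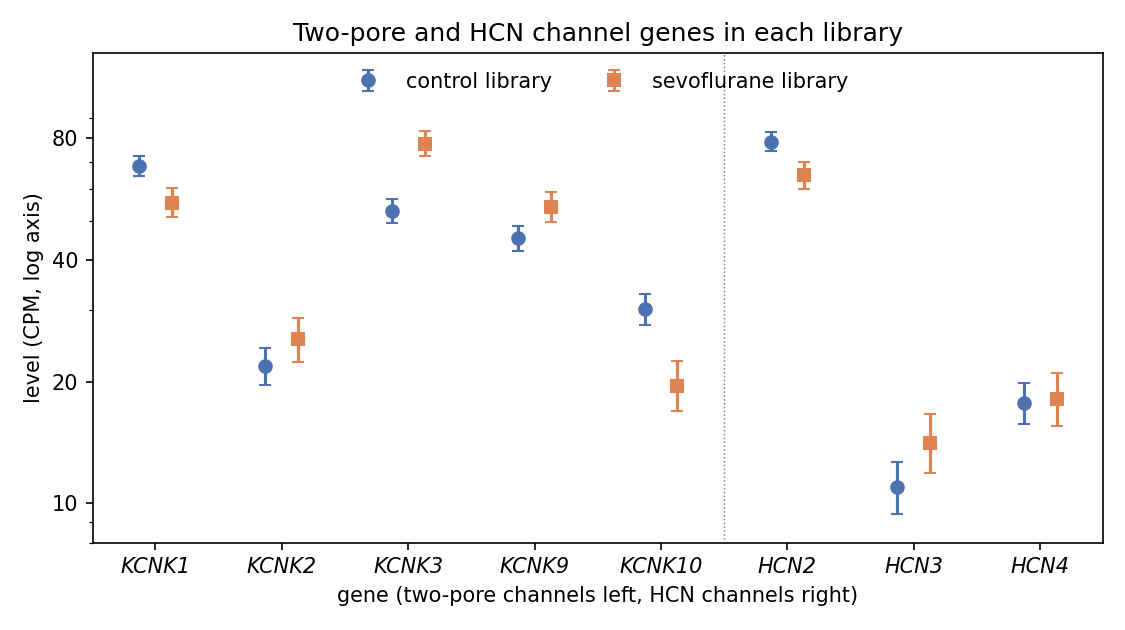
The plot gives the level of each channel gene in CPM, on a log axis, in the control library (circles) and the sevoflurane library (squares), with exact 95% Poisson intervals as bars and 1 library per group. The intervals of the libraries do not overlap for 5 of the 8 genes, against 43.5% of all tested genes. The 5 are KCNK3 and KCNK9 (sevoflurane higher) and KCNK1, KCNK10 and HCN2 (control higher). Heights of different genes are not corrected for transcript length and not compared.

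Among the TASK channels, acid-sensitive leak channels that carry much of the anesthetic-activated potassium current, both genes were higher in the sevoflurane library. KCNK3, which encodes TASK-1, had 889 control reads and 770 sevoflurane reads. These correspond to 52.9 CPM (95% interval 49.5 to 56.5) and 77.5 CPM (72.2 to 83.2), and the counting intervals did not overlap. Its level in the sevoflurane library was 147% of the control level, a log2 ratio of 0.55 (95% interval 0.41 to 0.69), and 82.3% of the tested genes had a lower ratio. KCNK9, which encodes TASK-3 and is expressed from the maternal allele, had 760 and 538 reads, or 45.2 CPM (42.1 to 48.6) and 54.2 CPM (49.7 to 59.0), higher under sevoflurane without overlap. Its log2 ratio of 0.26 (0.10 to 0.42) was smaller than that of KCNK3. The pair summed to 1649 control reads and 1308 sevoflurane reads, with a log2 ratio of 0.42 (0.32 to 0.53). KCNK3 supplied 53.9% of the reads of the pair in the control (exact binomial interval 51.5 to 56.3) and 58.9% in the sevoflurane library (56.1 to 61.6).

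The TREK genes went apart. KCNK2, which encodes the mechanically and thermally gated TREK-1, had 367 control reads and 253 sevoflurane reads. At 21.8 CPM (19.7 to 24.2) and 25.5 CPM (22.4 to 28.8) its levels overlapped, and the log2 ratio of 0.22 had an interval from -0.01 to 0.46. KCNK10, which encodes the close relative TREK-2, had 507 control reads and 194 sevoflurane reads. Its control level of 30.2 CPM (27.6 to 32.9) and its sevoflurane level of 19.5 CPM (16.9 to 22.5) had separate intervals. This was the lowest ratio of the 8 genes, at -0.62 (-0.87 to -0.39) or 64.7% of the control level, and 12.5% of all tested genes lay lower still. KCNK10 held 58.0% of the reads of the TREK pair in the control library (54.7 to 61.3) and 43.4% in the sevoflurane library (38.7 to 48.1).

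KCNK1 encodes TWIK-1, a weakly conducting two-pore channel found in neurons and astrocytes. Control reads numbered 1150 and sevoflurane reads 551, or 68.4 CPM (64.5 to 72.5) and 55.5 CPM (50.9 to 60.3). The sevoflurane library stood at 81.1% of the control, with a log2 ratio of -0.30 (-0.45 to -0.15).

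Of the HCN genes, HCN2 was lower, HCN3 higher and HCN4 level between the libraries within counting error. HCN2, one of the main cortical HCN channels and strongly tuned by cyclic AMP, had 1318 control reads and 644 sevoflurane reads. Its 78.4 CPM (74.3 to 82.8) in the control exceeded the 64.8 CPM (59.9 to 70.1) in the sevoflurane library without overlap, and the log2 ratio was -0.27 (-0.41 to -0.14). HCN3, which responds little to cyclic AMP, had the fewest reads of the 8 genes, 184 from the control and 140 from the sevoflurane animal. Its levels of 10.9 CPM (9.42 to 12.7) and 14.1 CPM (11.9 to 16.6) had overlapping intervals, while the interval of the ratio itself, 0.36 (0.04 to 0.69), lay just above 0. HCN4, the slow channel best known from the cardiac pacemaker and the thalamus, had 297 and 180 reads, or 17.7 CPM (15.7 to 19.8) and 18.1 CPM (15.6 to 21.0). A difference in HCN4 was not detectable at this depth, with a log2 ratio of 0.04 (-0.24 to 0.31). The reads of HCN2, HCN3 and HCN4 summed to 1799 and 964, a log2 ratio of -0.14 (-0.26 to -0.03).

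**Figure D2:**
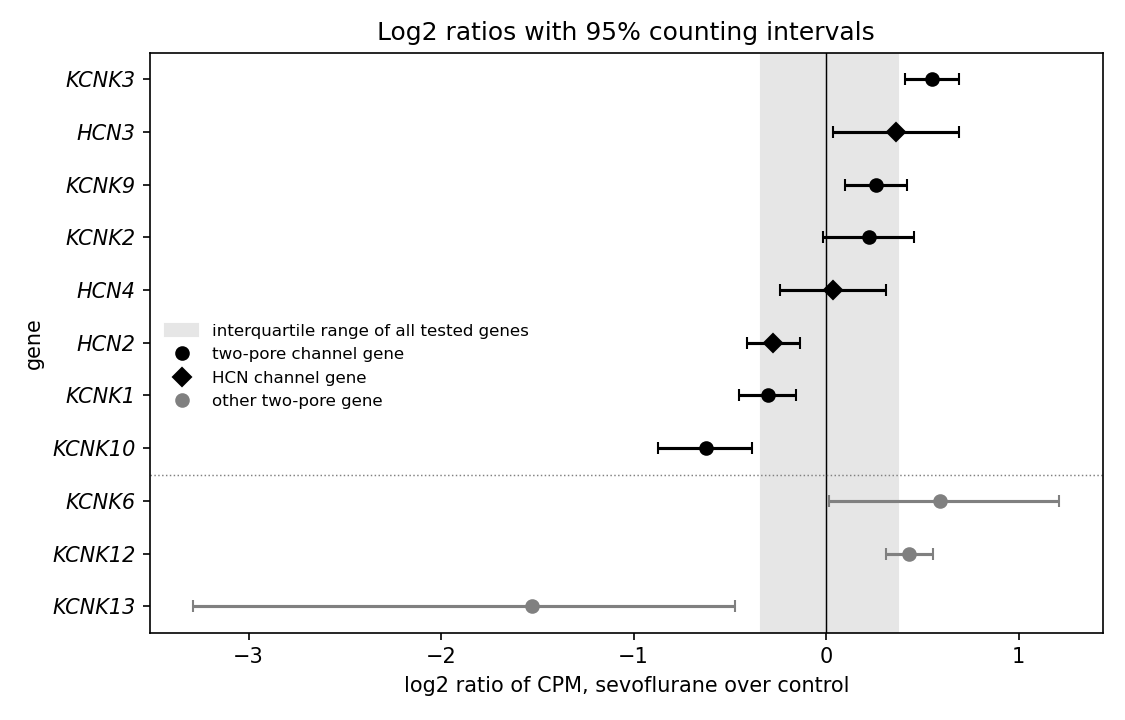
Log2 ratios of CPM, sevoflurane over control, are plotted with 95% counting intervals for the 8 channel genes (black) and for the 3 other tested two-pore genes (grey), with circles for two-pore and diamonds for HCN genes. KCNK3 at 0.55 and KCNK10 at -0.62 are the only black points outside the shaded interquartile range of all tested genes, -0.34 to 0.37.

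Because the scaling cancels when 2 genes are compared within the same libraries, the ratios of the channel genes were also set against each other. Of the 28 pairs, 20 had a difference in log2 ratio whose exact conditional 95% interval excluded 0, and 14 did so with an error rate of 0.001 for the interval. Over all pairs of tested genes, a normal approximation of the same interval excluded 0 in 54.6% and, at the stricter rate, in 30.6%. It gave the same 20 and 14 for the channel genes. The shares over all pairs were not matched for reads either. Per read of KCNK10 there were 1.75 reads of KCNK3 in the control and 3.97 under sevoflurane, a difference in log2 ratio of 1.18 (0.90 to 1.46). KCNK3 against KCNK1 went from 0.77 to 1.40 reads per read, a difference of 0.85 (0.65 to 1.06). Within the TREK pair, KCNK2 per read of KCNK10 went from 0.72 to 1.30, a difference of 0.85 (0.51 to 1.19). Within the TASK pair the difference was 0.29 (0.08 to 0.51), KCNK3 being the higher. Between HCN3 and HCN2 it was 0.64 (0.28 to 0.99).

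Ordered by log2 ratio, the 8 genes ran KCNK3, HCN3, KCNK9, KCNK2, HCN4, HCN2, KCNK1 and KCNK10, and 2 of the 7 pairs of neighbours differed beyond counting error at 95%, and 0 did at the error rate of 0.001. HCN4 and HCN2 differed by 0.31, with a lower limit of 0.0017 and an upper limit of 0.62. KCNK1 and KCNK10 differed by 0.32 (0.04 to 0.61). HCN3, KCNK9, KCNK2 and HCN4 could not be separated from each other at this depth, and neither could HCN2 and KCNK1, whose difference of 0.03 had an interval from -0.18 to 0.23. HCN2, KCNK1 and KCNK10 were each separated at 95% from each of the other 5 genes. This grouping was read from the order of the same ratios, so the separation is a description and not a test of it. At the error rate of 0.001, HCN4 was separated from neither HCN2 nor KCNK1.

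**Figure D3:**
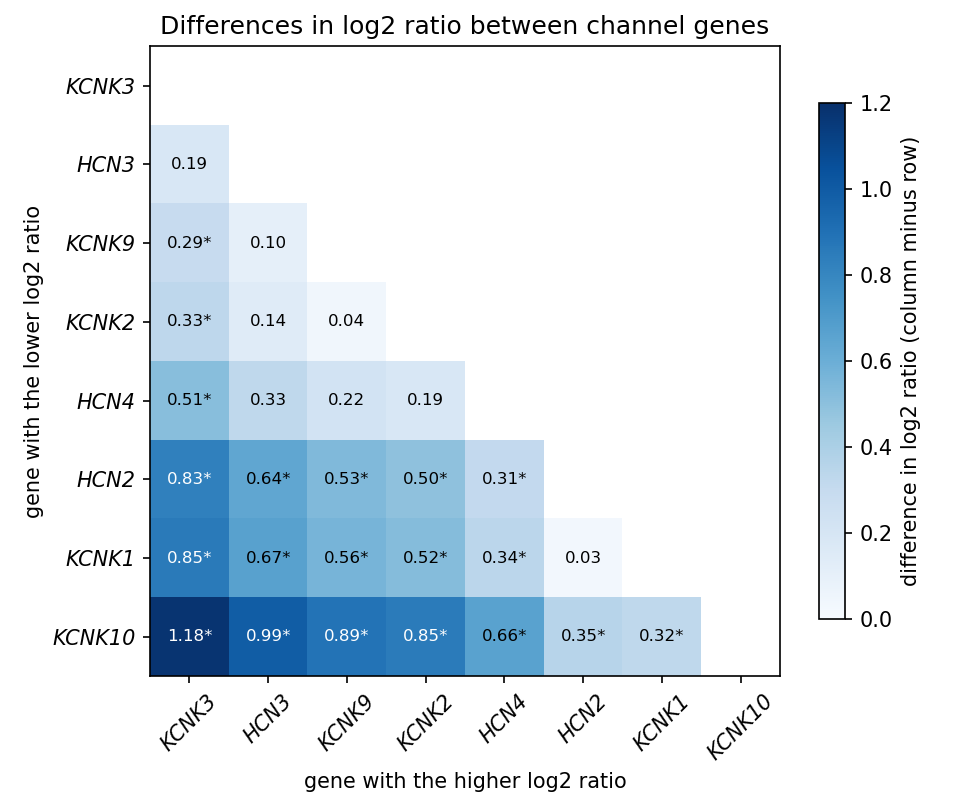
Each cell gives the difference in log2 ratio between a gene with the higher ratio (column) and one with the lower ratio (row), and an asterisk marks a 95% interval that excludes 0. The 15 cells in the bottom 3 rows that compare HCN2, KCNK1 and KCNK10 with the other 5 genes all carry an asterisk, from 0.31 for HCN4 and HCN2 to 1.18 for KCNK3 and KCNK10. The rows follow the order of the same ratios, and the grouping was read from that order.

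Other genes of the two-pore family were measured beside them. KCNK12, which encodes THIK-2, a channel largely held inside the cell, had 1231 control and 981 sevoflurane reads. Its log2 ratio was 0.43 (0.31 to 0.55). KCNK6, which encodes TWIK-2, had 52 and 47 reads (0.59, 0.01 to 1.21). KCNK13, which encodes THIK-1, a channel of microglia that halothane inhibits, had 34 control reads and 6 sevoflurane reads (-1.53, -3.29 to -0.47). It was the only two-pore gene at least 2-fold apart with an interval that excluded equal expression, and it rests on few reads.

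Few or no reads fell on the rest of the two-pore family. KCNK7 had 7 control and 6 sevoflurane reads, KCNK17 had 3 and 4, KCNK15 had 4 and 0, and KCNK16 had 1 and 0. KCNK5 (TASK-2) and KCNK18 (TRESK) had 0 reads in both libraries, which allows a level of up to 0.179 CPM (control) and 0.302 CPM (sevoflurane), the value of 3 reads, which is a one-sided 95% limit. Summed over 14 two-pore genes, the reads came to 5005 (control) and 3350 (sevoflurane), a log2 ratio of 0.18 (0.12 to 0.24). KCNK3 took 17.8% of them in the control (16.7 to 18.8) and 23.0% in the sevoflurane library (21.6 to 24.4), and KCNK10 took 10.1% (9.31 to 11) and 5.79% (5.02 to 6.64). The KCNK1 share went from 23.0% (21.8 to 24.2) to 16.4% (15.2 to 17.7). That of KCNK12 went from 24.6% (23.4 to 25.8) to 29.3% (27.7 to 30.9). These shares are not corrected for transcript length, so only their change between libraries is read.

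**Figure D4:**
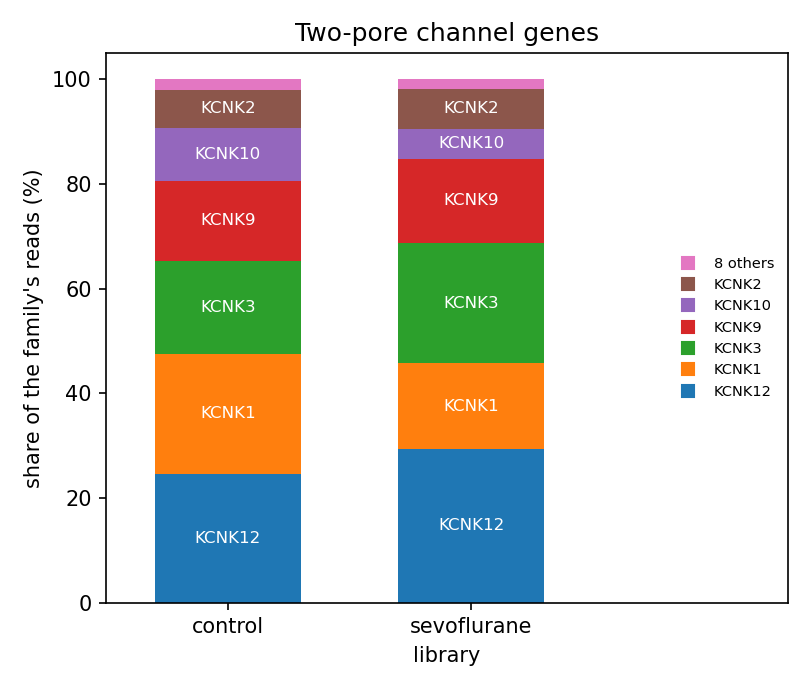
Stacked bars give the share of the reads of 14 two-pore genes that fell on each gene in the control and the sevoflurane library, in percent and without correction for transcript length. The KCNK3 band widens from 17.8% to 23.0% and the KCNK12 band from 24.6% to 29.3%. The KCNK10 band narrows from 10.1% to 5.79% and the KCNK1 band from 23.0% to 16.4%.

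Genes that act on these channels were followed in lists chosen for their function. By the interval, 28.4% of all tested genes were higher and 28.1% lower. The counts of the lists were not tested against these shares. Of the 8 tested HCN partners, 1 was higher and 4 were lower by the interval, with a median of -0.12. The lowest was MRVI1 (IRAG1), a protein of the endoplasmic reticulum, with 259 control and 67 sevoflurane reads (-1.17, -1.60 to -0.80), followed by its relative LRMP (IRAG2) with 31 and 8 reads (-1.06, -2.53 to -0.04). KCNE2, an accessory subunit, had the highest ratio, 0.91 (-0.05 to 2.11), on 15 and 18 reads. The list also held PEX5L, the auxiliary subunit TRIP8b that controls HCN trafficking, whose interval included 0. Of the 13 two-pore partners, 5 were higher and 5 lower, with a median of -0.16. They ran from YWHAB, a 14-3-3 protein that carries TASK channels forward (-0.63, -0.67 to -0.58), to SPTBN4, the spectrin that anchors TREK-1 (0.73, 0.66 to 0.79). None of these 13 was at least 2-fold apart.

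Of the 19 tested genes that make, break down or sense cyclic AMP, 5 were higher and 9 lower, with a median of -0.10. For this and the next 2 lists, too, the shares over all tested genes were 28.4% higher and 28.1% lower. PDE10A, a phosphodiesterase that removes cyclic AMP and cyclic GMP, had 1410 control and 287 sevoflurane reads (-1.53, -1.73 to -1.35). PRKACB, a catalytic subunit of protein kinase A, had only 9 and 22 reads under its symbol (1.79, 0.87 to 3.35). These are few for a widely expressed gene, so its reads may be listed elsewhere in the annotation and the ratio may not describe the gene. Of the 14 tested receptors and effectors of the Gq pathway, through which transmitters close TASK and TREK channels, 4 were higher and 5 lower, with a median of 0.05. TRHR, the receptor of thyrotropin-releasing hormone, had 42 control and 9 sevoflurane reads (-1.33, -2.69 to -0.40), and the adrenergic receptor gene ADRA1D was highest at 0.88 (0.55 to 1.24). Of 8 genes of the sodium leak channel complex and the sodium-potassium pump, 1 was higher and 2 lower, with a median of -0.04. They ran from ATP1B1, a widely expressed pump subunit (-0.13, -0.18 to -0.09, and 0.14 when centred on the neuron markers), to ATP1B2, a glial pump subunit (0.80, 0.73 to 0.86).

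Markers of cell types differed between the libraries as well. Their counts by the interval stand beside 28.4% higher and 28.1% lower among all tested genes, not matched for reads. All 8 oligodendrocyte markers were lower in the sevoflurane library, with log2 ratios from -1.90 (MOG) to -0.56 (MBP) and a summed level of 4159 CPM (control) and 2029 CPM (sevoflurane). Of 8 astrocyte markers, 6 were lower and 1 was higher, and their summed level was 6571 and 4558 CPM. The 6 pan-neuronal markers had a median of -0.27, with 4 lower and 1 higher, and a summed level of 4125 and 3567 CPM. Of 5 excitatory neuron markers 3 were higher and 2 lower, summing to 2298 and 3306 CPM. NRGN, singled out after its values were seen, carried the difference in the sum, with 1038 and 2090 CPM. The other 4 summed to 1259 and 1217 CPM, most of it from SLC17A7 (998 and 914 CPM). TBR1 and NEUROD2 were higher as well, with log2 ratios of 0.57 (0.48 to 0.65) and 0.94 (0.80 to 1.09). SLC17A7 and NEUROD6 were the 2 lower markers, with log2 ratios of -0.13 and -2.69. Of 7 inhibitory neuron markers 4 were lower and 1 higher, summing to 499 and 440 CPM. The higher one was PVALB, with 68 control and 221 sevoflurane reads and a log2 ratio of 2.42 (2.06 to 2.87). All 4 precursor markers of oligodendrocytes were lower (393 and 271 CPM). Microglia markers, of interest for KCNK13, summed to 214 CPM in both libraries, with 2 of 6 higher and 1 lower. Endothelial markers (0 higher, 1 lower of 4) summed to 131 and 128 CPM, and mural cell markers (2 higher, 1 lower of 4) to 347 and 385 CPM. Markers of meninges and choroid plexus (3 higher, 0 lower of 5) summed to 203 and 347 CPM, and those of red blood cells (2 higher, 0 lower of 3) to 24.5 and 79.7 CPM. Of all these markers only the red blood cell gene HBA1 had 0 reads in a library, the control. In bulk tissue, fewer cells of a type and less RNA per cell cannot be told apart, and the part of these shifts in the channel ratios was not tested.

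Relative to the median of the pan-neuronal markers in place of all genes, the split of the channel genes changed. KCNK3, HCN3, KCNK9, KCNK2 and HCN4 were then higher and KCNK10 alone was lower, 5 and 1 of 8, while KCNK1 and HCN2 were no longer distinguishable from equal expression. With the same centring, 47.9% of all tested genes were higher and 13.4% lower. The centre was the median of 6 markers that ran from -0.56 (NEFL) to 0.83 (RBFOX3), and the intervals do not include this spread. The excitatory neuron markers had a median of 0.57, and centring on them was not tried.

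**Figure D5:**
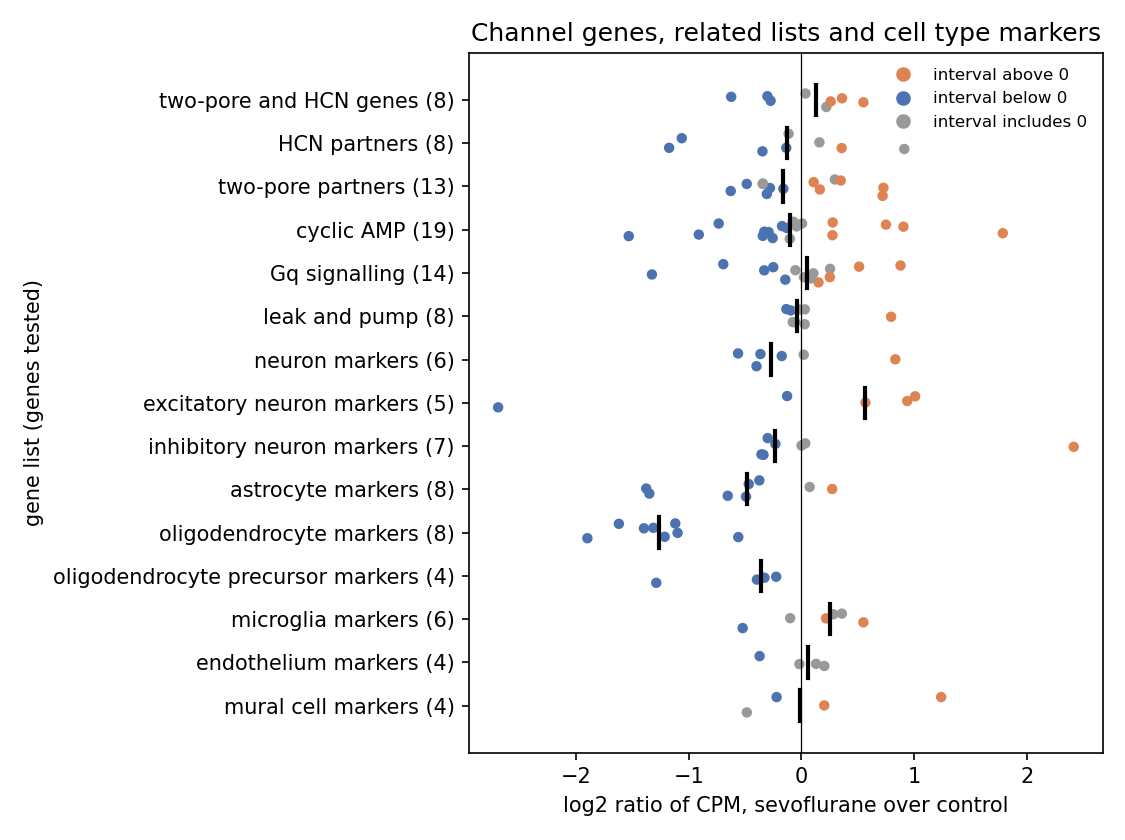
Log2 ratios of the tested genes of each list are plotted, sevoflurane over control, with the number tested beside each name, the list median as a black bar, and the colour giving whether the 95% counting interval lies above 0, below 0 or includes 0. The 8 channel genes stay between -0.62 and 0.55, whereas the oligodendrocyte markers lie between -1.90 and -0.56.

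Some channel genes share their position with other genes in the RefSeq annotation of the macaque assembly T2T-MMU8v2.0, which was used for names and positions only. Overlaps were taken over the whole span of each gene, without exons or strand, so they do not show that counted sequence is shared. HCN2 overlaps PALM, which had 4226 control and 3214 sevoflurane reads (log2 ratio 0.36, 0.30 to 0.43), opposite in direction to HCN2. HCN3 overlaps PKLR, with 62 and 23 reads (-0.64, -1.43 to 0.04). Whether counting used strand is not given in the sources used here, so reads of overlapping genes may not be separated for HCN2 and HCN3. Of the other family genes, KCNK6 overlaps YIF1B (397 and 150 reads), and KCNK13 overlaps pseudogenes. KCNK1, KCNK2, KCNK3 and KCNK10 overlap no other gene in that annotation, and KCNK9 and HCN4 overlap long non-coding RNAs only.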

How the data were processed

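The authors deposited raw read counts per gene for 2 libraries, without normalization. The submitters' processing notes name HISAT2 2.0.4, and the counting tool, strand setting, genome build and annotation are not given in the sources used here. Tested genes reached 1 CPM in at least 1 of the libraries. TMM factors (edgeR 4.0.16, R 4.3.3) were 0.991 (control) and 1.01 (sevoflurane). Log2 ratios used a prior count of 2. Exact Clopper-Pearson limits, applied to the fraction of a gene's reads coming from the sevoflurane animal, gave the 95% intervals, and pairs of genes were compared by the exact conditional interval of the odds ratio (scipy 1.17.1, Python 3.11.15). For all pairs of tested genes a normal interval of the log odds ratio, with 0.5 added to the reads, took its place. A quasi-likelihood fit needs replicates, so none was run. The counts give no molecular identifiers, so intervals and the floor of 3 reads cover counting error only. The procedure was tested on simulated counts that held counting error only, with planted changes larger than those of the channel genes. That test does not cover variation between animals.

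The 9 channel genes and all lists were chosen with earlier results of these data known. Named are these genes, other two-pore genes, and from each list of related genes the lowest and highest ratio and up to 4 genes per direction at least 2-fold apart. Markers, PEX5L and genes overlapping the channel genes are named besides, after their values were seen. PRKAR2A was not analysed here, and some genes of the families and lists are not reported here and are outside their counts. The alternatives tried were, for scaling, the size factors of DESeq2 1.42.0, raw totals, upper-quartile factors and the median of the neuron markers, and besides these a prior count of 0.5, a minimum of 5 CPM or of 1 read, a control library thinned to the sevoflurane depth, a wider interval (error rate 0.001), and folds of 1.5 and 4. Levels per coding length were planned and were not computed because no lengths were used here.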

Additional observations from a re-analysis of the deposited data

How the results depend on the processing

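No paired analysis was possible because 1 library stands for a group, and no replicate could be left out. Of 64 log2 ratios of the 8 channel genes under the alternatives that can move a ratio, 58 stayed within their 95% counting interval and 0 changed direction beyond it. The other 6 came from centring on the neuron markers, which shifts all genes by 0.27. That centring gave KCNK3 0.82, KCNK9 0.53, KCNK2 0.49, HCN2 -0.0044, KCNK1 -0.0325 and KCNK10 -0.35, with 5 channel genes higher and 1 lower. With an error rate of 0.001 for the interval, 1 gene (KCNK3) was higher, against 18.0% of all tested genes, 3 were still lower, against 18.4%, and neither of the 2 separated neighbours in the order of ratios remained separated. With library totals or a minimum of 5 CPM, 4 genes were higher, KCNK2 being added, against 30.1% and 31.9% of all tested genes. With a threshold of 1.5-fold, 1 gene (KCNK10) was lower and none higher, against 11.9% and 14.4% of all tested genes. The count of genes at least 2-fold apart was 0 under every alternative of scaling, filter, prior count, depth and interval. Of 106 ratios of the other named genes, 100 stayed within their interval, and the 6 others came from the neuron centring, among them ATP1B1, which was reversed to 0.1356. Control levels with that library sampled down stayed within their Poisson intervals. The comparison of levels with and without coding length was not run. The 9839105 reads of the sevoflurane library limit HCN3 and HCN4 most, at 140 and 180 reads.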
